A study of Homo sapiens with 2 samples.

Results

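The genes described here are 60 human genes of inflammatory signalling: cytokines, chemokines, cytokine receptors, the subunits and inhibitors of the transcription factor NF-kB, and genes that NF-kB is known to induce. They were taken by gene name from both deposited tables, which list 26370 gene names, and all 60 were present. The tables hold expression in CHME3, a human line made by immortalising foetal microglia with a viral oncogene, cultured at passages 4 to 6. It was measured in 1 untreated library and in 1 library of cells exposed to 5 µg/ml of muscarinic receptor antagonists, drugs that block acetylcholine receptors. The name of the compound and the length of exposure are not given in the sources used here. Both groups are the same cell line, with no other agent or genetic change named for either. Values are in FPKM, fragments scaled to transcript length and to sequencing depth, summed over the transcripts of a gene, and pairs of values are given as untreated, then treated.

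NF-kB is a family of dimers of RELA, RELB, REL and the processed products of NFKB1 and NFKB2. In resting cells inhibitors of the IkB family hold the dimers in the cytoplasm. Signals from receptors such as those for TNF and interleukin 1 lead to loss of the inhibitors, and the dimers then enter the nucleus and induce cytokines, chemokines, adhesion molecules and their own inhibitors. Cytokines of the interleukin 6 family signal through the shared receptor chain IL6ST and the JAK-STAT pathway, which the SOCS proteins restrain. In the brain, microglia are a main source of many of these cytokines.

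The depth estimated from the values was 6834684 fragments for the untreated library and 7312572 for the other. With 1 library per condition there is no replicate error and no test. A counting interval is a 95% exact conditional binomial interval of the treated over untreated FPKM ratio on estimated fragments. It covers counting error only and compares these 2 libraries, not the conditions. Listed 18S ribosomal RNA, RNA18S5, was at 363 and 759 FPKM, and this difference and that in treatment cannot be told apart. Of 15 microglia and macrophage markers 9 were listed at 0 in both libraries, among them AIF1, CX3CR1, TMEM119 and PTPRC, and 2 had a mean of at least 1 FPKM, CD68 at 15.7 and 12.6 and CD14 at 1.97 and 1.63. The 15 summed to 18.0 and 14.3 FPKM, while 10 fibroblast and mesenchyme markers summed to 5725 and 6221 FPKM with COL3A1, LUM and DCN at 0. FN1 and VIM, which cultured cells of many types express, made up 81.9% and 81.1% of that sum. The part of these markers in the values below was not tested. Lists of 5 markers each summed to 5.00 and 6.17 FPKM for astrocytes, 30.7 and 31.2 for neurons, 0.211 and 0.148 for endothelium and 0.111 and 0.110 for T cells.

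The culture expressed the NF-kB subunits, the shared receptors of the interleukin 6 family and a limited set of cytokines and chemokines. Of the 60 genes 35 had a mean of at least 1 FPKM over both libraries, 13 had a lower value above 0 in at least 1 library, and 12 were listed at 0 in both. The highest were RELA, SOD2, NFKB2 and TNFAIP2, the 4 genes with at least 30 FPKM in both libraries. In the plot of levels the receptors over the floor run from IL6R, at 1.34 and 1.56 FPKM, up to OSMR, and the chemokines from CXCL3 up to CXCL8.

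**Figure D1:**
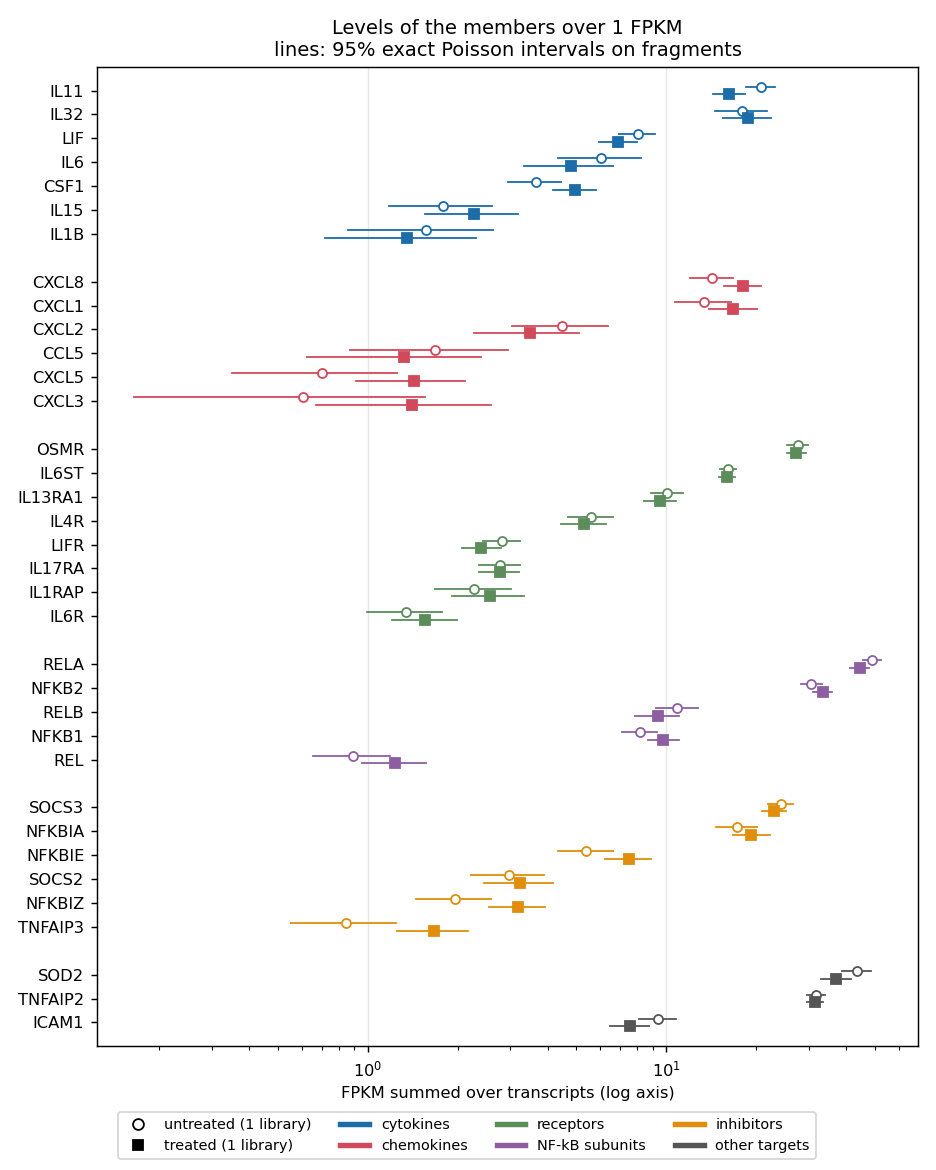
FPKM of the 35 genes over the floor, on a log axis, with open circles for the untreated library, filled squares for the treated library and lines for 95% exact Poisson intervals of the fragments behind each value. RELA has the highest value in each library, and the widest lines belong to CXCL3, at 0.607 and 1.40 FPKM from 4 and 10 fragments.

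No gene of the set differed by 1.5-fold between the libraries on the scale of log2 of (treated FPKM + 1) over (untreated FPKM + 1), a scale on which low genes look closer than their ratio. Over all 11668 genes that reach this mean, the floor used throughout, 1.2% passed 1.5-fold upwards, with higher treated values, and 1.03% passed it downwards. For a 2-fold difference these shares were 0.351% and 0.309%, and again 0 of the 35 genes passed. The 35 differences ran from -0.34 for IL11 to 0.58 for CXCL3, with a median of 0.00 and quartiles of -0.15 and 0.24. All 11668 genes also had a median of 0.00, with quartiles of -0.10 and 0.11. Of the 35 genes 18 were higher and 17 lower in the treated library. By the plain FPKM ratio, with nothing added, CXCL3, CXCL5, TNFAIP3 and NFKBIZ were at least 1.5-fold higher, 4 of 35 beside 2.8% of all genes, and 0 were 1.5-fold lower beside 2.37%. This scale was added after the data were seen. On the scale with 1 FPKM added, all 19 with at least 100 fragments in each library lay within 1.5-fold. At a floor of 5 FPKM 0.506% of 8296 genes passed it upwards and 0.494% downwards. This count is therefore not a result about the set.

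**Figure D2:**
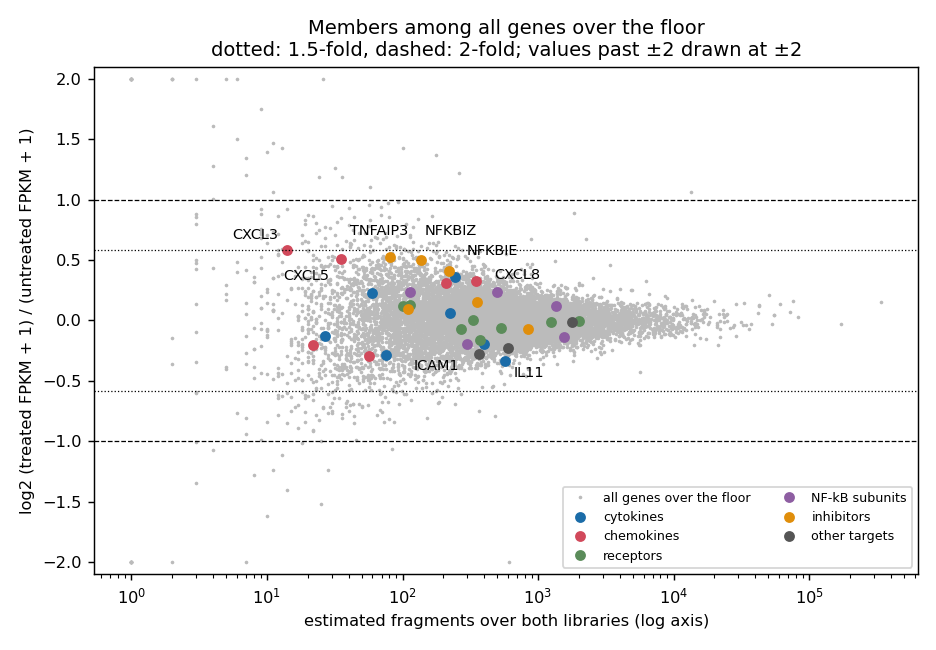
Difference between the libraries (vertical axis, log2 of treated over untreated after adding 1 FPKM) against the fragments behind it (horizontal log axis) for all 11668 genes over the floor in grey and the 35 genes of the set in colour by role. The 35 lie between -0.34 and 0.58, inside the dotted lines at 1.5-fold.

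Counting intervals were entirely above 1 for 6 of the 35 genes, TNFAIP3, NFKBIZ, NFKBIE, CSF1, CXCL8 and NFKB1, a share of 17.1% beside 6.68% of all genes over the floor. They were entirely below 1 for 2, IL11 and ICAM1, a share of 5.71% beside 6.21% of all genes. The lower share is near that of all genes and is not a result about the set. The remaining 27 intervals held 1. Of the 6 higher genes 3 belong to the inhibitors, of which 6 were over the floor.

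**Figure D3:**
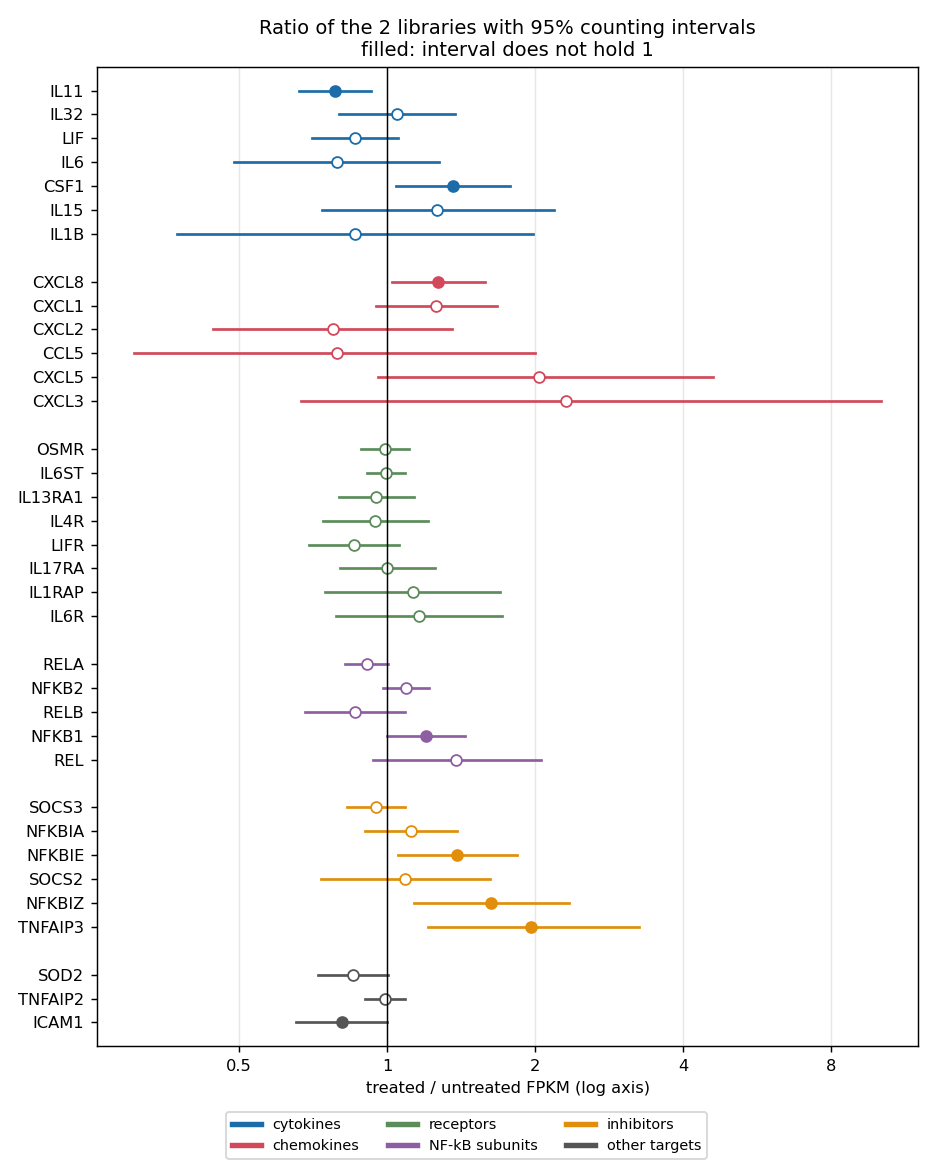
Treated over untreated FPKM ratio of the 35 genes on a log axis, with 95% counting intervals as lines and filled points where the interval does not hold 1. The 3 filled inhibitors TNFAIP3, NFKBIZ and NFKBIE have ratios of 1.96, 1.62 and 1.39, and the filled points below 1 are IL11 at 0.783 and ICAM1 at 0.807.

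Among the 5 NF-kB subunits, RELA was the most abundant and REL the least in each library, and the 5 did not differ in a common direction. RELA, the main activating subunit (chromosome 11, 65653596 to 65662972 on hg38), was at 48.8 and 44.4 FPKM, a treated-to-untreated ratio of 0.909 (0.822 to 1.00473). NFKB2, the precursor of p52 (chromosome 10, 102394110 to 102402529), stood at 30.6 and 33.4 FPKM, a treated-to-untreated ratio of 1.09 (0.980 to 1.22). RELB, its usual partner in the non-canonical pathway (chromosome 19, 45001449 to 45038198), stood at 10.9 and 9.35 FPKM, a treated-to-untreated ratio of 0.859 (0.679 to 1.08). These 3 intervals hold 1. NFKB1, the precursor of p50 (chromosome 4, 102501329 to 102617302), stood at 8.16 and 9.78 FPKM (217 and 279 fragments), with a treated-to-untreated ratio of 1.20 whose interval, 1.00008 to 1.44, only just leaves 1 out and holds 1 once the median difference of all genes is set to 0. REL (chromosome 2, 60881495 to 60928156) had values of 0.893 and 1.23 FPKM, a treated-to-untreated ratio of 1.38 (0.935 to 2.05). The order of levels, RELA, NFKB2, RELB, NFKB1, REL, held in the untreated library, while NFKB1 and RELB changed places in the treated library, where they were at 9.78 and 9.35 FPKM. Within the untreated library the ratio of RELB to NFKB1 was 1.33, with a counting interval of 1.08 to 1.65, and within the treated library it was 0.956 (0.776 to 1.17), which holds 1. The other neighbours in this order had intervals without 1 in both libraries.

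Of the NF-kB inhibitors in the set, TNFAIP3, NFKBIZ and NFKBIE had intervals above 1, and that of NFKBIA held 1. Regulators outside the set lay on both sides of 1. NFKBIB, IkB beta, was at 17.0 and 16.9 FPKM, with an interval that holds 1. CYLD, a deubiquitinase that restrains the pathway, was at 5.32 and 4.39, with a ratio of 0.825 (0.698 to 0.975). BCL3, an atypical IkB, had a ratio of 1.23 (0.970 to 1.57). TNIP2, TNIP1, TAX1BP1 and OTULIN, other regulators of the pathway, had ratios of 1.06, 1.05, 1.03 and 1.01, with intervals that hold 1. TNFAIP3, a ubiquitin-editing enzyme also called A20 that shuts off NF-kB signalling (chromosome 6, 137867188 to 137883314), stood at 0.848 and 1.66 FPKM from 26 and 55 fragments. Its ratio was 1.96 (1.21 to 3.26), and its most abundant transcript alone is under the floor. NFKBIZ, an atypical nuclear IkB that can activate as well as restrain target genes (chromosome 3, 101827990 to 101861025), stood at 1.96 and 3.18 FPKM (50 and 87 fragments), with a treated-to-untreated ratio of 1.62 (1.13 to 2.35). Its exons share 195 bases with those of NXPE3 on the same strand, which was at 3.57 and 4.01 FPKM, and reads there could belong to either gene. NFKBIE, the inhibitor IkB epsilon (chromosome 6, 44258166 to 44265788), stood at 5.39 and 7.48 FPKM (88 and 131 fragments), with a treated-to-untreated ratio of 1.39 (1.05 to 1.84). NFKBIA, IkB alpha, an inhibitor that NF-kB itself induces (chromosome 14, 35401510 to 35404754), was more abundant, at 17.2 and 19.3 FPKM, and its ratio of 1.12 (0.902 to 1.38) holds 1. The SOCS genes are feedback inhibitors of JAK-STAT signalling, and the intervals of SOCS3 and SOCS2 hold 1. SOCS3 was at 24.2 and 23.0 FPKM, a treated-to-untreated ratio of 0.950 (0.828 to 1.09), SOCS2 at 2.97 and 3.23, a treated-to-untreated ratio of 1.09 (0.735 to 1.62), and SOCS1 at 0.429 and 0.265 FPKM from 3 and 2 fragments.

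The chemokines that the cells expressed were mainly those of the CXCL cluster on chromosome 4, which attract neutrophils. CXCL8, interleukin 8 (73740506 to 73743716), was the highest, at 14.2 and 18.1 FPKM (147 and 201 fragments), with a treated-to-untreated ratio of 1.27 (1.02 to 1.58). CXCL1 (73869392 to 73871302) had values of 13.3 and 16.8 FPKM, a treated-to-untreated ratio of 1.26 (0.949 to 1.67). CXCL5 (73995642 to 73998729) had values of 0.701 and 1.42 FPKM (11 and 24 fragments), with a treated-to-untreated ratio of 2.03 (0.958 to 4.59). These 3 were higher in the treated library, and the interval left out 1 for CXCL8 alone. CXCL3 (74036591 to 74038773) had values of 0.607 and 1.40 FPKM (4 and 10 fragments), with a treated-to-untreated ratio of 2.31 (0.667 to 10.1). CXCL2 (74097037 to 74099280) was the cluster member that was lower, at 4.49 and 3.48 FPKM (31 and 26 fragments), with a treated-to-untreated ratio of 0.776 (0.443 to 1.35). The intervals of CXCL2 and CXCL3 hold 1. CXCL6, a neighbouring relative outside the set, was at 0.499 and 0.463 FPKM.

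Reads can be divided wrongly only where these transcripts are alike. In GENCODE 29 transcripts, 5.73% of the 1048 stretches of 50 bases in CXCL1 also occurred in CXCL2 and 0.573% in CXCL3, while CXCL2 shared 4.62% of its 1169 stretches with CXCL3. CXCL5 and CXCL8 shared none with the other 5 of these chemokines. The length of the reads is not given in the sources used here. For CXCL1, CXCL2 and CXCL3 the values therefore carry some doubt from shared sequence that the counting intervals leave out.

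The promoters of these genes are shown because the set includes genes that NF-kB is known to induce, and the CXCL genes share a site. RefSeq promoters on GRCh38.p14, 250 bases before to 50 after each start, were matched for 44 of the 60 genes. The window printed for each gene runs from -110 to -31 relative to the RefSeq start, 80 bases, which can differ from the start in the deposited tables. Capitals mark matches, on either strand, to the NF-kB consensus of 10 bases or to the motif GGAATTTCC, which CXCL8 and ICAM1 carry without the longer motif and which was chosen with the sequences known. Where the 2 motifs or both strands overlap, the capitals run together.
CXCL1, chr4:73869283-73869362, plus strand: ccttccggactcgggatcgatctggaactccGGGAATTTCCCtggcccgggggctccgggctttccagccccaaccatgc
CXCL2, chr4:74099226-74099305, minus strand: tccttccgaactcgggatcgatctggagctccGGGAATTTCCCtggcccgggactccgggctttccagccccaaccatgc
CXCL3, chr4:74038720-74038799, minus strand: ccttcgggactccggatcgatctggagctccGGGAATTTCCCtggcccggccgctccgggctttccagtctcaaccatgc
CXCL5, chr4:73998708-73998787, minus strand: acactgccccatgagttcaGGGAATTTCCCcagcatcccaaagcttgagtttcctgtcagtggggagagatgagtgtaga
CXCL8, chr4:73740459-73740538, plus strand: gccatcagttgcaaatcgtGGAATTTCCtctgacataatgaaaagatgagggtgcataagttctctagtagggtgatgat

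CXCL1 and CXCL3 had their match at -79 and CXCL2 at -78, CXCL5 and CXCL8 had theirs at -91, and the capitals of CXCL1, CXCL2, CXCL3 and CXCL5 are the same letters. The first 3 of these did not share a direction: CXCL1 had a ratio of 1.26, CXCL3 of 2.31 and CXCL2 of 0.776, with all 3 intervals holding 1. Neither NFKB2 nor NFKBIZ is printed. NFKB2, whose interval held 1, had matches within this window, among them from -107 and -78. NFKBIZ, whose interval lay above 1, had matches from -223 and -239, outside it. Windows of the subunits NFKB1 and REL, the inhibitors NFKBIA and TNFAIP3, and IL6 are given for comparison. TNFAIP3 and NFKB1 had intervals above 1, while those of REL, NFKBIA and IL6 held 1.
NFKB1, chr4:102501249-102501328, plus strand: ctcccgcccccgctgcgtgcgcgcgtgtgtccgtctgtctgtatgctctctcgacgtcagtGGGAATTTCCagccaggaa
REL, chr2:60881464-60881543, plus strand: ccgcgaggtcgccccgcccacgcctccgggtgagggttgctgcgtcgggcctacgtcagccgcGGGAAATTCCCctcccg
NFKBIA, chr14:35404780-35404859, minus strand: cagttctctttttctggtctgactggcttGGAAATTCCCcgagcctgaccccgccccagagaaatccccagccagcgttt
TNFAIP3, chr6:137867149-137867228, plus strand: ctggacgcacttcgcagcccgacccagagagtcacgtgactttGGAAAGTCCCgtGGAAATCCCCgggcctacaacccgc
IL6, chr7:22727090-22727169, plus strand: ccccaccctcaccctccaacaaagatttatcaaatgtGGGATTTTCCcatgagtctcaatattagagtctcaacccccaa

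TNFAIP3 carried a pair of matches, from -67 and from -55, NFKBIA a match from -81, and IL6 a match from -73. The NF-kB consensus was found in 19 of the 44 genes, in 21 of their 67 promoters (31.3%), and in 11.3% of all 35116 RefSeq promoters of the same length. The shorter motif was found in 12 of the 44 genes, in 12 of their 67 promoters (17.9%), and in 0.461% of all promoters. The set includes genes chosen as known targets of NF-kB, and the shorter motif was chosen with the sequences known. Neither difference is therefore a result about the set. Of the 27 matched genes over the floor 14 had the consensus, and of the 17 that were not over it 5 did, among them CXCL10 and CXCL11, which were listed at 0. A match is a description of the letters in this window and does not show that NF-kB binds there.

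**Figure D4:**
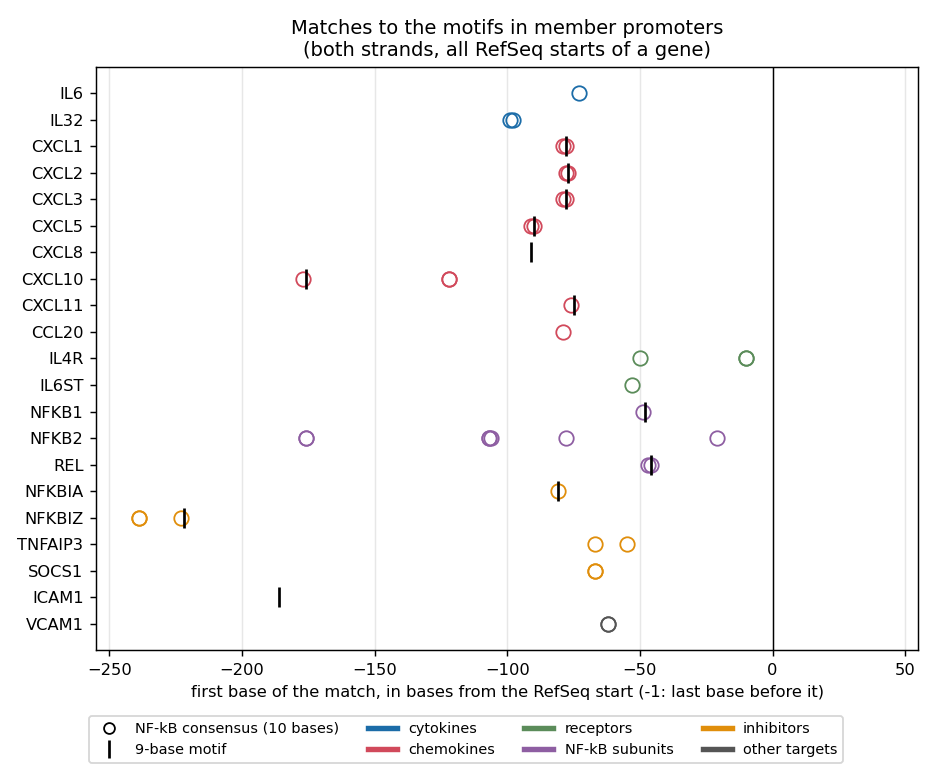
First base of each match to the NF-kB consensus (circles, coloured by role) and to the 9-base motif (black bars) in the RefSeq promoters of the 21 genes with either, on an axis of bases from the start. CXCL1, CXCL2 and CXCL3 line up at -79, -78 and -79, and CXCL8 has the shorter motif alone at -91.

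CC chemokines of the set, which attract monocytes and lymphocytes, were at or near the limit of detection, except CCL5, which was over the floor. CCL5 (chromosome 17, 35871491 to 35880373) had values of 1.68 and 1.33 FPKM (12 and 10 fragments), with a treated-to-untreated ratio of 0.790 (0.306 to 1.996). CCL2, the main monocyte chemokine, was at 1.05 and 0.726 FPKM from 4 and 3 fragments, and CCL20 at 0.451 and 0.207 from 2 and 1. CCL3, CCL4 and CCL7 were listed at 0 in both libraries. CCL3 and CCL4 have near-identical copies, of which CCL3L1, CCL3L3 and CCL4L1 were at 0 and CCL4L2 was at 0 and 0.115 FPKM, the latter from 1 fragment. CX3CL1, fractalkine, the ligand of the microglial receptor CX3CR1, was at 0.234 and 0.363 FPKM from 5 and 8 fragments.

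Among the 17 cytokines of the set the highest values were those of IL11 and IL32. IL11, a member of the interleukin 6 family (chromosome 19, 55364382 to 55370463), stood at 20.7 and 16.2 FPKM (309 and 260 fragments), with a treated-to-untreated ratio of 0.783 (0.661 to 0.926), and was the only cytokine with an interval below 1. The other family members that the cells expressed also had lower values in the treated library, with intervals that hold 1. LIF, leukaemia inhibitory factor (chromosome 22, 30240447 to 30246851), stood at 8.03 and 6.89 FPKM, a treated-to-untreated ratio of 0.858 (0.701 to 1.05). IL6 (chromosome 7, 22727147 to 22732002) had values of 6.05 and 4.78 FPKM (41 and 35 fragments), with a treated-to-untreated ratio of 0.790 (0.488 to 1.27), and shares 53 exon bases with LOC541472 on the other strand, which was at 0.499 and 0.579 FPKM.

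CSF1, the growth factor on which macrophages and microglia depend (chromosome 1, 109910611 to 109930994), stood at 3.64 and 4.95 FPKM from 97 and 145 fragments. Its ratio was 1.36 (1.04 to 1.77). Its receptor CSF1R was at 0.0905 and 0.0844 FPKM from 2 and 2 fragments, and IL34, the alternative ligand of that receptor, was listed at 0. IL32, an inflammatory cytokine with no rodent counterpart, was at 17.9 and 18.7 FPKM, a treated-to-untreated ratio of 1.05 (0.799 to 1.37). IL15, which supports natural killer and T cells, was at 1.79 and 2.26 FPKM (27 and 33 fragments), with a treated-to-untreated ratio of 1.26 (0.737 to 2.19). IL1B, interleukin 1 beta, was at 1.57 and 1.35 FPKM from 14 and 13 fragments. All 3 of these intervals hold 1.

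Several cytokines linked to activated microglia were barely detected. TNF was at 0.493 and 0.275 FPKM from 5 and 3 fragments, and CSF2, the growth factor GM-CSF, at 0.494 and 0.681 from 2 and 3. IL1A and IL18 had 1 fragment in 1 library and 0 in the other. The antagonist IL1RN, the anti-inflammatory IL10, and IL24, IL33, IL34 and CSF3 were listed at 0 in both libraries, as were the chemokines CXCL10, CXCL11 and CXCL12. For the 12 genes at 0, the 3 fragments that a count of 0 allows would correspond to 0.131 to 0.925 FPKM without and 0.122 to 0.846 FPKM with the antagonists, depending on transcript length.

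Of the 9 receptors 8 were over the floor, and all 8 counting intervals held 1. Among all genes over the floor 6.68% of intervals lay above 1 and 6.21% below it. The count of 8 is therefore not a result about the receptors. On depth-scaled fragments the interval of OSMR lay above 1. With the most abundant transcript alone, those of OSMR and IL4R lay below it. OSMR, the oncostatin M receptor (chromosome 5, 38845858 to 38935641), stood at 27.5 and 27.3 FPKM, a treated-to-untreated ratio of 0.991 (0.885 to 1.11). IL6ST, or gp130, the signalling chain shared by the interleukin 6 family (chromosome 5, 55935097 to 55994993), stood at 16.1 and 15.95 FPKM (973 and 1034 fragments), with a treated-to-untreated ratio of 0.993 (0.909 to 1.09). Both were among the deeper measurements of the set. LIFR, its partner for LIF, was at 2.81 and 2.40 FPKM, a treated-to-untreated ratio of 0.856 (0.694 to 1.06), and IL6R at 1.34 and 1.56. IL13RA1 and IL4R, which together bind interleukins 4 and 13, were at 10.1 and 9.55 and at 5.61 and 5.31 FPKM. IL17RA was at 2.77 and 2.77 FPKM, and IL1RAP, the accessory chain of the interleukin 1 receptor, at 2.27 and 2.56. IL1R1, the receptor itself, was just under the floor at 1.003 and 0.825 FPKM from 34 and 30 fragments.

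Of the 7 other inducible genes 3 were over the floor, with ICAM1 alone having an interval below 1, and 4 were barely detected. TNFAIP2, a TNF-induced gene of membrane protrusions (chromosome 14, 103126327 to 103137439), stood at 31.8 and 31.5 FPKM, a treated-to-untreated ratio of 0.991 (0.902 to 1.09). SOD2, the mitochondrial superoxide dismutase (chromosome 6, 159679116 to 159693321), stood at 43.4 and 36.9 FPKM (307 and 290 fragments), with a treated-to-untreated ratio of 0.850 (0.722 to 1.0016) whose interval lies below 1 once the median difference of all genes is set to 0. ICAM1, an adhesion molecule for leukocytes (chromosome 19, 10270841 to 10286615), stood at 9.35 and 7.55 FPKM (195 and 169 fragments), with a treated-to-untreated ratio of 0.807 (0.653 to 0.997) that holds 1 under upper quartile scaling or on depth-scaled fragments. PTGS2, the inducible cyclooxygenase, had 1 fragment in each library. NOS2, the inducible nitric oxide synthase, and IDO1, a tryptophan-degrading enzyme, had 2 untreated fragments and 0 treated ones, and VCAM1 had 1 and 2. Known targets of NF-kB thus lay on both sides of 1, with TNFAIP3, NFKBIZ, NFKBIE and CXCL8 above it and ICAM1 below.

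For 22 of the 35 genes the tables list 2 or more transcripts on the main chromosomes, and in 10 of them 1 transcript held at least 90% of the value on average. The authors' bounds of a transcript did not overlap between the libraries for 16 of the 73 transcripts (21.9%), in 12 of the 22 genes (54.5%). Among all genes over the floor with 2 or more transcripts, the same held for 17% of 22628 transcripts and in 37.3% of 6509 genes. The higher value of TNFAIP3 was listed under transcripts that differ little in length. Its transcript of 4690 bases was at 0.837 and 0.910 FPKM, while those of 4714 and 4738 bases were at 0.0110 and 0.401 and at 0.000149 and 0.351 FPKM. OSMR had nearly the same sum in both libraries but not the same transcripts: the one of 5539 bases was at 10.2 and 13.98 FPKM, the shorter one of 1740 bases at 17.4 and 13.3. Because the longer transcript yields more fragments, the fragments of OSMR numbered 555 and 699, a depth-corrected ratio of 1.18 beside the FPKM ratio of 0.991.

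NFKB2 showed a similar exchange, with its transcript of 3217 bases at 13.2 and 9.02 FPKM and that of 3126 bases at 10.5 and 15.5 FPKM. In IL4R the transcript of 3689 bases was at 3.10 and 0.925 FPKM, and that of 3551 bases at 0.000472 and 1.11. For IL15 the transcript of 2002 bases was at 0.00807 and 1.27 FPKM. The 2 transcripts of NFKB1 differ by 3 bases in length, at 4082 and 4085, and stood at 3.44 and 2.89 and at 4.72 and 6.89 FPKM. Such splits rest on how the authors' software divided reads among transcripts that share most of their sequence, and have no replicate.

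**Figure D5:**
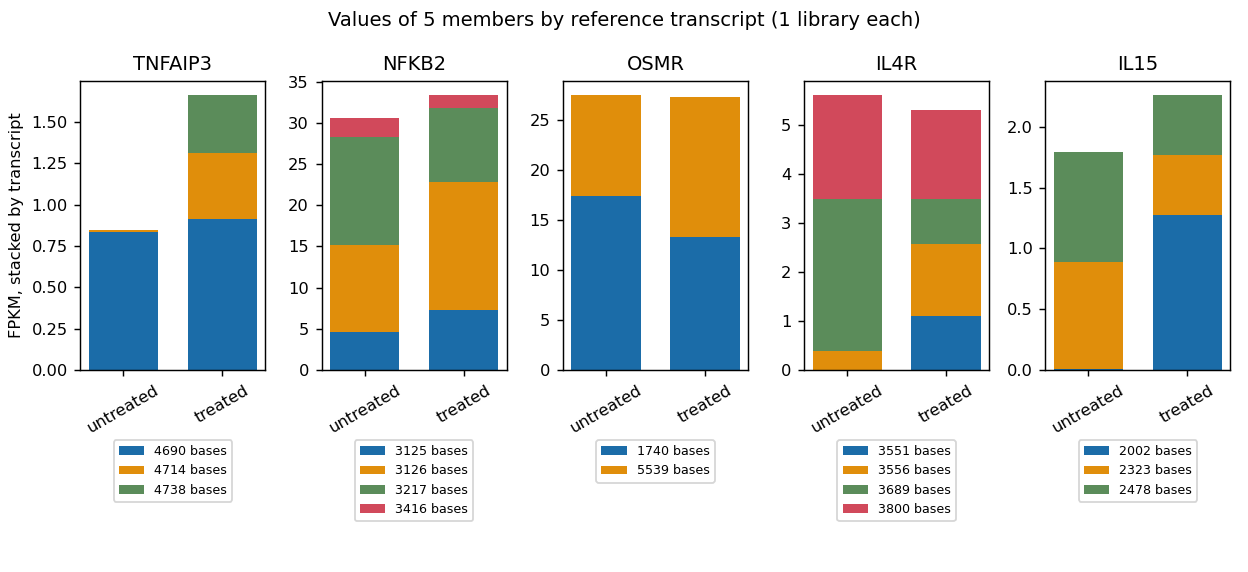
FPKM of TNFAIP3, NFKB2, OSMR, IL4R and IL15 in the untreated and treated libraries, stacked by reference transcript, each panel on its own axis from 0. The OSMR columns have nearly the same height, 27.5 and 27.3 FPKM, but the 5539-base transcript holds 36.9% of the untreated and 51.3% of the treated value.

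Other genes of these pathways, outside the 60, were compared in the same way. Of the 55 over the floor 0 passed 1.5-fold after adding 1 FPKM, beside 1.2% of all genes upwards and 1.03% downwards. By the plain FPKM ratio CISH, described below, passed it downwards, at 0.553. In the list of NF-kB signalling from receptor to nucleus, 30 of 38 genes were over the floor, with 19 higher, 11 lower and a median log2 ratio of 0.02. The interval lay above 1 for 3 of them, IKBKB, TAB1 and TNFRSF1A, and below 1 for 2, BIRC2 and CYLD. These shares of 10% and 6.67% stand beside 6.68% and 6.21% of all genes. They rest on 3 and 2 of 30 genes, and neither is a result about the list. IKBKB, the kinase that marks IkB proteins for destruction, was at 5.91 and 8.48 FPKM (157 and 244 fragments), with a treated-to-untreated ratio of 1.44 (1.17 to 1.77). IRAK4, a kinase of interleukin 1 signalling, was at 2.01 and 2.73 FPKM, a treated-to-untreated ratio of 1.36 (0.953 to 1.95), BCL3, an atypical IkB, at 10.9 and 13.4, and TAB1, an activator of the kinase TAK1, at 14.6 and 17.3, a treated-to-untreated ratio of 1.19 (1.02 to 1.39).

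The JAK-STAT list had 17 of 28 genes over the floor, with 11 higher, 6 lower, a median log2 ratio of 0.04, 0 intervals above 1 and 1 below it, a share of 5.88% beside 6.21% of all genes. This was CISH, a SOCS family member, at 2.82 and 1.56 FPKM (37 and 22 fragments), with a treated-to-untreated ratio of 0.553 (0.311 to 0.962). IL11RA, the receptor of IL11, was at 6.89 and 8.62 FPKM, a treated-to-untreated ratio of 1.25 (0.913 to 1.72), PIAS3, an inhibitor of STAT3, at 39.3 and 43.1, and STAT6, the transducer of interleukin 4, at 8.97 and 9.72. STAT3, the main transducer of the interleukin 6 family, was at 39.4 and 39.8 FPKM. Few other cytokines or chemokines were measured. Of 39 other cytokines 6 were over the floor, led by MIF at 1099 and 1207 FPKM, a treated-to-untreated ratio of 1.10 (1.04 to 1.16). The interleukin 6 relatives CLCF1 and CTF1 were at 4.85 and 3.79 and at 5.27 and 4.34 FPKM, lower in the treated library, with intervals that hold 1 as those of LIF and IL6 do. LTB, lymphotoxin beta, was at 7.98 and 6.34 FPKM, and EBI3, a subunit shared by several heterodimeric interleukins, at 7.43 and 8.88. Of 42 other chemokines and chemokine receptors 2 were over the floor, CCR10 at 2.92 and 3.99 FPKM and CXCL16 at 1.85 and 1.96.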

How the data were processed

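Total RNA of CHME3 cells was made into TruSeq libraries, per the labels' protocols. TopHat and Cuffdiff with the build hg38 are named in the submitters' processing notes, without versions. Per the file headers and lines, Cufflinks wrote the values, and the authors deposited FPKM for each of 56891 RefSeq transcript records with lower and upper bounds. The authors' files also hold a score per transcript, which was not used. Strand is not stated, so overlapping genes cannot be told apart.

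The value of a gene is the sum of FPKM over all records with its name. Fragments were first recovered from the bounds, as the square of 2 times FPKM over the distance to the upper bound. Single-transcript genes of at least 1000 bases with at least 10 fragments, whole within 0.01, gave a straight line (fragments per FPKM against length) from 602 untreated and 609 treated transcripts. Applied to all transcripts of at least 500 bases, this line gave whole fragments within 0.01 for 75.8% of 5956 untreated and 76.2% of 5931 treated single-transcript genes with at least 3 fragments. Counting intervals scale exact binomial bounds on rounded fragments to the FPKM ratio. They treat the division of reads between transcripts as fixed, and reads are not independent molecules. The interval and the depth estimate were checked on simulated libraries. The simulated fragments were Poisson counts of single-transcript genes, the model that the interval itself assumes. The check therefore does not cover the division of reads between transcripts.

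Genes over the floor had a mean of at least 1 FPKM. The rule for naming genes was every gene of the set with at least 1 FPKM on average, an interval without 1 or at least 3 fragments, and up to 4 genes per pathway list with the largest difference. Values of STAT3, MIF, CXCL6, CSF1R, NFKBIB, CYLD, TNIP1, TNIP2, TAX1BP1, OTULIN, FN1, VIM and of genes with fewer fragments were added after they were seen. The genes and lists were chosen with earlier results of these data known. Python 3.11.15, scipy 1.17.1 and pandas 2.3.3 were used.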

Additional observations from a re-analysis of the deposited data

How the results depend on the processing

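The 10 alternatives, listed at the outset, changed the pseudocount, the floor, the transcript used, the unit, the scaling or the contigs. No gene with an interval on 1 side of 1 changed its direction under those that gave it a value. At a pseudocount of 0.1, 4 genes passed 1.5-fold (CXCL3, CXCL5, NFKBIZ and TNFAIP3) and 1 passed 2-fold, all higher, beside 2.55% and 0.754% of all genes, and at 0.5, 3 passed 1.5-fold, beside 1.71%. With no pseudocount, an alternative added after seeing the data, the same 4 passed 1.5-fold and 2 passed 2-fold (CXCL3 and CXCL5), beside 2.8% and 0.814%. Depth-scaled fragments in place of FPKM gave 3 genes past 1.5-fold, all higher (all genes: 1.85%). They gave 7 intervals above 1 (6.77%), OSMR among them, and 1 below it (5.14%). Upper quartile scaling gave 1 past 1.5-fold, CXCL3 (1.25%), 6 intervals above 1 (7.83%) and 1 below it, that of IL11 (5.19%). ICAM1 thus lost its call under both. A floor of 5 FPKM left 20 genes, with 3 intervals above 1 (7.17%). With the most abundant transcript alone, 1 gene was 1.5-fold higher (IL32, beside 2.89% of all genes) and 1 lower (IL4R, beside 2.59%), the latter also the 1 gene past 2-fold (0.936%), and 4 intervals lay below 1 (10.3%). With that setting 7 of the 32 genes over the floor had intervals above 1 (10.6%). IL32 and NFKB2 were gained among these, and TNFAIP3 fell under the floor. NFKB1 lost its interval above 1 and SOD2 gained one below 1 when the median difference of all genes was set to 0. No paired analysis was possible because each group has 1 library. Depth limits the low genes most: 11 of the 13 genes under the floor and above 0 had at most 5 fragments in each library.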
